A study of Homo sapiens
Mus musculus and Mus musculus and Homo sapiens with 16 samples.

Results

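LILRA4 and 7 other genes of leukocyte immunoglobulin-like receptors and their relatives (LILRA1, LILRA2, LILRB1, LILRB2, LILRB4, LAIR1 and SIRPA) were followed in REC-1 cells, a human mantle cell lymphoma (MCL) line. The 8 genes were chosen by symbol, out of 58051 genes in the human count table, with the levels and differences of these same REC-1 libraries already known. Their values in REC-1 cells are therefore given as a description and carry no test. RNA was sequenced from REC-1 cells cultured alone (Sep), from REC-1 cells that stayed in suspension above a layer of MS-5 cells (Susp) and from REC-1 cells that adhered to that layer (Adh), with 4 libraries in each group. MS-5 is a mouse bone marrow stromal line, which was also cultured alone in 4 libraries. All groups had the same medium for 24 h, and the labels name no drug, transgene or edited gene. Each species is represented by a single line. The study describes the libraries of a group as independent experiments, which the labels do not state. Adh libraries held RNA of both species, and read pairs were assigned to human or mouse by sequence.

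These receptors belong to the immunoglobulin superfamily and set thresholds for activation of leukocytes. The inhibitory members (LILRB receptors, LAIR1 and SIRPA) have long cytoplasmic tails with immunoreceptor tyrosine-based inhibitory motifs (ITIMs), which recruit the phosphatases SHP-1 and SHP-2 once their tyrosine is phosphorylated. The activating members (most LILRA receptors) have short tails and a charged arginine in the membrane, through which they pair with the Fc receptor gamma chain and its activating motif. LILRA4, also called ILT7, is known as a surface receptor of plasmacytoid dendritic cells that binds BST2 (tetherin) and dampens their interferon response. LILRB1, LILRB2 and LILRA1 bind HLA class I molecules, LILRB4 binds apolipoprotein E, LAIR1 binds collagens and SIRPA binds CD47.

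This division into activating and inhibitory receptors is visible in the coding sequences. The membrane span of the 3 LILRA members is shown first, 5′ to 3′ along the coding strand (GRCh38), with the arginine codon in capitals. It lay at chr19:54333677-54333733 (minus strand) for LILRA4, chr19:54587242-54587298 (plus strand) for LILRA2 and chr19:54600731-54600787 (plus strand) for LILRA1.
LILRA4: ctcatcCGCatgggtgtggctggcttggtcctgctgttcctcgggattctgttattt
LILRA2: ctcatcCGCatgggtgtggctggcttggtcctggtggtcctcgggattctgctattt
LILRA1: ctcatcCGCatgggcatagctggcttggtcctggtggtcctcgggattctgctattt
Over these 57 bases LILRA4 differed from LILRA2 at 3 positions and from LILRA1 at 6. The coding sequence after the span was 34 codons long in LILRA4, 15 in LILRA2 and 9 in LILRA1, and a search for ITIM-type motifs found 0 in each.

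In the 5 other members the tail measured between 95 and 170 codons, and of these LAIR1 also had an arginine codon in its span, at the end towards the tail. The motif searched for was a tyrosine with isoleucine, valine, leucine or serine a pair of residues before it and isoleucine, valine or leucine at the third residue after it. Tails of LILRB1, LILRB4 and SIRPA held 3 matches each, and those of LILRB2 and LAIR1 held 2 each. The match nearest the membrane is shown for the 4 such members that passed the low-count filter, with the tyrosine codon in capitals. These lay in coding exons at chr20:1937332-1937349 (plus strand) for SIRPA, chr19:54667665-54667682 (plus) for LILRB4, chr19:54355370-54355387 (minus) for LAIR1 and chr19:54636524-54636541 (plus) for LILRB1.
SIRPA: atcacaTATgcagacctg
LILRB4: gtgacgTATgccaaggtg
LAIR1: gtgacgTATgctcagctg
LILRB1: gtgacgTATgccgaggtg
Of 6280 human proteins with a hydrophobic span, 23.6% had at least 1 such motif behind it and 7.01% had at least 2. A match describes the sequence and does not show that the site is used.

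LILRA4 was the most abundant member in every REC-1 library (plot of receptor genes by library). It lies on chromosome 19 from 54333185 to 54339162 on the minus strand, in the leukocyte receptor cluster (ENSG00000239961). Its level in CPM (counts scaled to library size) was 229, 247, 223 and 244 in Sep replicates 1 to 4. In the Susp replicates it was 279, 338, 269 and 254 CPM. In the Adh replicates it was 158, 170, 134 and 166 CPM. All Adh libraries lay below all Sep libraries, and these lay below all Susp libraries. The gap between the last of these pairs was narrow, from 247 CPM in the highest Sep library to 254 CPM in the lowest Susp library.

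**Figure D1:**
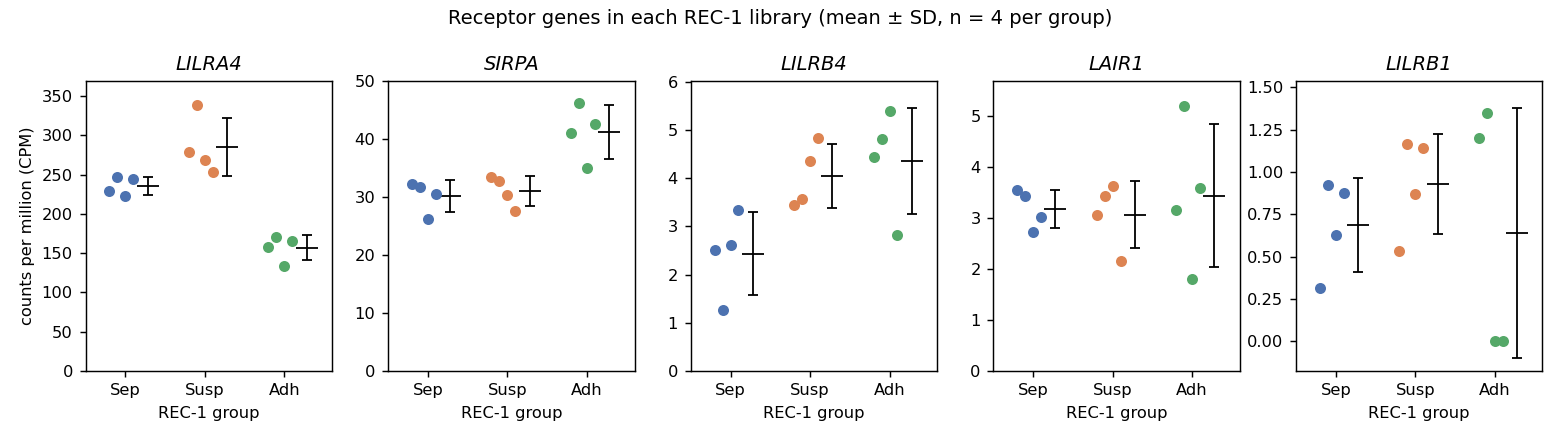
Level of the 5 members that passed the low-count filter, in CPM of human counts, in each of the 4 libraries of monocultured (Sep), suspended (Susp) and adherent (Adh) REC-1 cells. Points are libraries, and the black mark beside them is their mean ± SD. LILRA4 was lowest in the Adh libraries (134 to 170 CPM) and SIRPA was highest there (34.9 to 46.2 CPM), while the levels of LAIR1 and LILRB1 overlapped between all groups.

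Mean levels of LILRA4 were 236 ± 11.4 CPM in Sep, 285 ± 36.9 in Susp and 157 ± 16.0 in Adh cells (SD, n = 4 each). The fitted log2 difference was -0.86 (SE 0.10) between Adh and Susp cells, a level 1.82-fold lower on adhesion. Between Adh and Sep cells it was -0.59 (SE 0.10), at the limit of a 1.5-fold lower level, and between Susp and Sep cells it was 0.27 (SE 0.10). Per length of its exons, LILRA4 stood at 108 RPKM (reads scaled by exon length and library size) in Sep, 130 in Susp and 71.9 in Adh cells. It thereby ranked 272, 242 and 503 among 12773 genes ordered by RPKM. In bulk RNA, fewer cells with a transcript and less of it per cell cannot be told apart.

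A gene was called between groups at an adjusted p-value of at most 0.05 (edgeR's quasi-likelihood test, Benjamini-Hochberg) and a fold change of at least 1.5. Of the 8 members, 5 passed the low-count filter, and LILRA1, LILRA2 and LILRB2 did not. Between Adh and Susp cells, 1 of the 5 was called, namely LILRA4, which was lower. Of all 12861 genes tested in that comparison 0.109% were called higher and 0.669% lower. Between Susp and Sep cells 0 of the 5 members were called, against 0.428% of all genes called higher and 0.303% lower. Between Adh and Sep cells LILRA4 was again the member called lower, against 0.583% of all genes called higher and 1.82% lower. The fold of LILRA4 in that last comparison lay on the 1.5-fold limit. Its call was lost without Sep replicate 2 (log2 difference -0.57), Sep replicate 4 (-0.58), Susp replicate 2 (-0.58) or Adh replicate 3 (-0.52). The call between Adh and Susp cells held under all 18 alternatives, with log2 differences from -0.91 to -0.75. The value nearest to 0 came without Susp replicate 2, the library with the highest LILRA4 level. The comparisons share groups and are not independent of each other. Members were chosen with these differences known, so their calls and the stability of those calls are a description and no support.

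**Figure D2:**
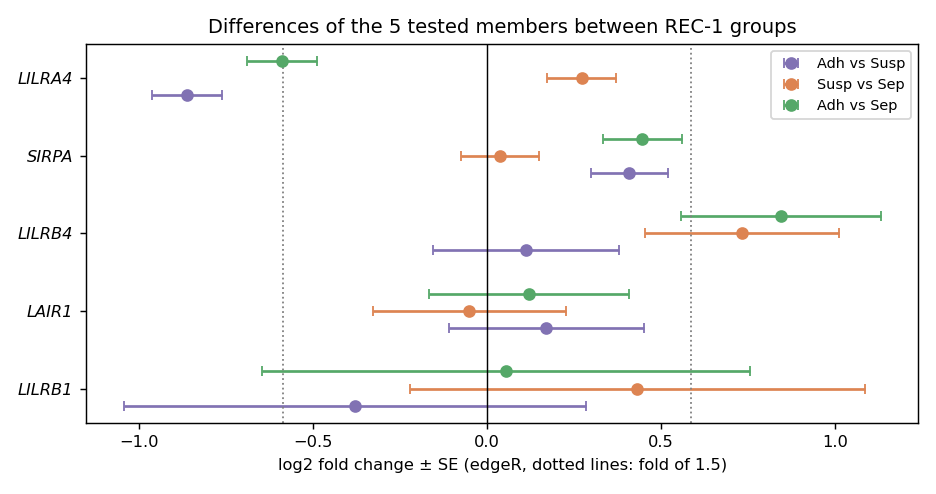
Log2 fold change of the 5 tested members between REC-1 groups, with its standard error from edgeR. Dotted lines mark a fold of 1.5 in either direction. LILRA4 was lower in Adh than in Susp cells (-0.86) and in Adh than in Sep cells (-0.59), while SIRPA and LILRB4 lay on the other side of 0 in those comparisons.

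SIRPA, the receptor for the "do not eat me" protein CD47 on myeloid cells, was the member with the next highest level, and its order of groups differed from that of LILRA4. It lies on chromosome 20 from 1894167 to 1940592 on the plus strand (ENSG00000198053). SIRPA levels were 32.3, 31.8, 26.3 and 30.6 CPM in the Sep replicates, and 33.5, 32.8, 30.5 and 27.6 CPM in the Susp replicates. They were 41.0, 46.2, 34.9 and 42.6 CPM in the Adh replicates. Every Adh library lay above every other REC-1 library, whereas Sep and Susp libraries overlapped. The log2 difference of SIRPA was 0.41 (SE 0.11) between Adh and Susp cells, 0.45 (SE 0.11) between Adh and Sep cells and 0.04 (SE 0.11) between Susp and Sep cells. The corresponding 1.33-fold and 1.36-fold higher levels in Adh cells were under the 1.5-fold minimum. By length SIRPA stood at 6.10 RPKM in Sep, 6.27 in Susp and 8.31 in Adh cells, near the middle of all ranked genes (rank 5751, 5663 and 4741).

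Because Adh libraries also held stromal RNA and MS-5 cells carried mouse Sirpa, the assignment of reads to species was examined for SIRPA. Human counts of 7 stromal marker genes amounted to between 0.0235% and 0.0448% of the mouse counts of the same genes in Adh libraries. At those rates, the 2606 to 3148 mouse Sirpa counts would give between 0.626 and 1.41 human SIRPA counts per library. The human SIRPA counts measured there were 272 to 546.

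The 2 leading members were also set against each other within each library (plot of the LILRA4 share). There were 7.84 ± 0.578 LILRA4 counts per SIRPA count in Sep, 9.17 ± 0.842 in Susp and 3.81 ± 0.0910 in Adh cells (SD, n = 4 each). Adh libraries ranged from 3.68 to 3.89, well under the lowest other library at 7.10. LILRA4 made up 86.0 ± 0.645% of all LILR, LAIR and SIRP counts in Sep, 87.4 ± 0.932% in Susp and 75.3 ± 1.17% in Adh cells. These shares rest on 1397 to 6430 family counts per library, and they do not depend on how libraries were scaled to each other.

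**Figure D3:**
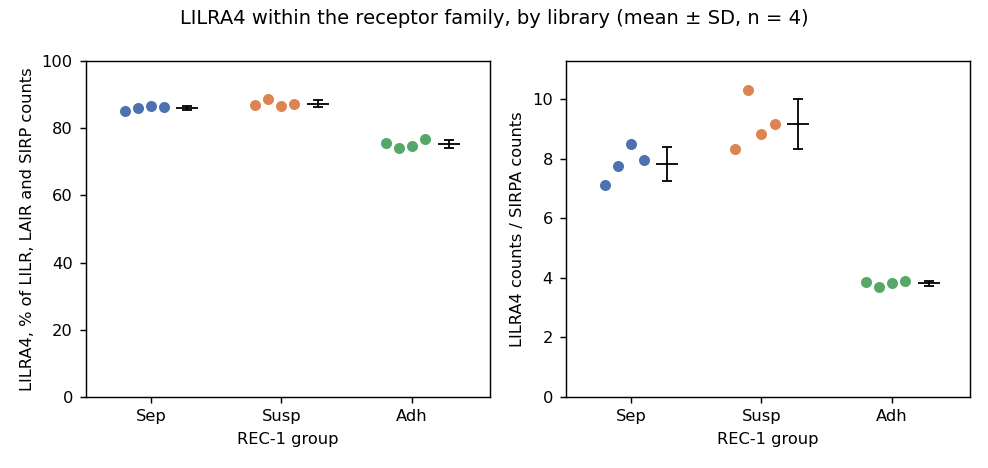
Left, share of all LILR, LAIR and SIRP counts of a library that fell on LILRA4, in percent. Right, LILRA4 counts per SIRPA count in the same library. Points are libraries of the 3 REC-1 groups with their mean ± SD (n = 4). The Adh libraries stood between 74.2% and 76.9% and between 3.68 and 3.89 counts, below all other libraries.

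LILRB4, an inhibitory receptor known from monocytes and plasma cells, was present at a low level. Its group means were higher in Susp and Adh than in Sep cells, but edgeR called it in no comparison. Its levels were 2.52, 1.26, 2.62 and 3.35 CPM in the Sep replicates, 3.45, 3.57, 4.35 and 4.84 CPM in the Susp replicates and 4.43, 4.81, 5.40 and 2.82 CPM in the Adh replicates. Susp libraries lay above Sep libraries, though by as little as 3.45 against 3.35 CPM, and Adh replicate 4 fell within the Sep range. LILRB4 log2 differences were 0.73 (SE 0.28) between Susp and Sep cells, 0.84 (SE 0.29) between Adh and Sep cells and 0.11 (SE 0.27) between Adh and Susp cells. With 15 to 90 LILRB4 counts per library, these folds of 1.66, 1.795 and 1.08 were less precise than those of LILRA4.

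Low counts carried an added limit. Among human counts from 1 to 4, 70.8% were even, so that most read pairs appear to have added 2 to the count, and such genes rest on fewer fragments than their counts say. LAIR1, the inhibitory collagen receptor of most leukocytes, lies nearest to LILRA4 among the tested protein-coding genes on the side of higher coordinates. LAIR1 levels were 3.54, 3.43, 2.72 and 3.03 CPM in Sep, 3.05, 3.44, 3.63 and 2.15 CPM in Susp and 3.16, 5.20, 1.799 and 3.59 CPM in Adh replicates. The 3 groups overlapped, with log2 differences of LAIR1 of 0.17 (SE 0.28) between Adh and Susp cells, -0.05 (SE 0.28) between Susp and Sep cells and 0.12 (SE 0.29) between Adh and Sep cells.

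LILRB1, the broadly expressed inhibitory receptor for HLA class I, was detected at the edge of the filter. Its counts were 4, 11, 6 and 11 in Sep, 8, 19, 18 and 17 in Susp and 16, 14, 0 and 0 in Adh replicates. The LILRB1 log2 difference between Adh and Susp cells was -0.38 with an SE of 0.66, so neither a rise nor a fall of that size was resolvable. LILRB2 counts were 2, 4, 6 and 0 in Sep, 0, 5, 8 and 6 in Susp and 2, 2, 0 and 0 in Adh replicates. The remaining activating members were at the background of single reads. LILRA1 had 2 counts each in Adh replicates 1, 2 and 3 and in Susp replicate 3, and 0 elsewhere. LILRA2 had 1 count in Sep replicate 3, 2 in Susp replicate 2 and 0 elsewhere. If counts arise 1 at a time, a count of 0 allows up to 3 counts, which was 0.140 to 0.387 CPM in these libraries. Where a read pair adds 2 to the count, this limit is higher. LILRA1 and LILRA2 were thus not detectable in most libraries at this depth.

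By RPKM the members fell in the order LILRA4, SIRPA, then LAIR1 and LILRB4, then LILRB1 in all 3 groups. LAIR1 and LILRB4 differed by less than their spread in Sep cells (0.394 ± 0.0468 and 0.385 ± 0.137 RPKM, SD), and LILRB4 was ahead in Susp and Adh cells. LILRB2, LILRA1 and LILRA2 came last at 0.0733 RPKM or less, where a few counts set their order. LILRA4 and SIRPA each stood above the next member by more than the spread between libraries. Libraries of the 2 groups did not overlap for 2 of 5 tested members between Adh and Susp cells (LILRA4 and SIRPA), for 2 of 5 between Susp and Sep cells (LILRA4 and LILRB4) and for 2 of 5 between Adh and Sep cells (LILRA4 and SIRPA). Among all genes tested that share was 11.4% between Adh and Susp, 11.3% between Susp and Sep and 15.7% between Adh and Sep cells. Median log2 differences of the 5 members were 0.11, 0.27 and 0.12 in those comparisons, beside -0.0051, -0.0059 and -0.0034 over all genes tested. Across the 12 REC-1 libraries, log2 CPM of LILRA4 correlated with that of SIRPA at Pearson r = -0.61, a description over libraries that share groups and depth.

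Shared sequence could take reads away from relatives, since only uniquely mapped reads were counted. Of all windows of the length of a sequencing read in its transcript, 0.862% of those of LILRA4 occurred elsewhere in the family, in LILRB3. The share was 6.76% for SIRPA, with SIRPB1, and 2.62% and 3.04% for LILRB1 and LILRB2 with each other. It was 0% for LILRA1, LILRA2, LILRB4 and LAIR1. LILRB3 had 4 to 30 counts and SIRPB1 had 0 to 6 counts in these libraries. A long noncoding RNA that overlaps LILRA4 on the same strand had 0 to 2 counts, and the RNA opposite SIRPA had 0 to 6. The library kit does not mark strand, so counting could not tell the strands apart.

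Of 11 further LILR, LAIR and SIRP genes in the table, LILRB3 alone passed the filter, at 0.889 CPM in Sep, 0.812 in Susp and 0.632 in Adh cells. It was not called in any comparison (adjusted p of 0.670, 0.951 and 0.646 for Adh against Susp, Susp against Sep and Adh against Sep, edgeR). Summed over the 11 genes, these relatives gave 0.770 to 3.08 CPM per library.

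The 5 genes whose log2 CPM followed LILRA4 most closely over the 12 libraries were CDK5RAP3 (Pearson r = 0.963), ARRDC2 (0.953), NECAB3 (0.949), WDR6 (0.940) and LPAR2 (0.937), out of 9855 genes compared. CDK5RAP3 averaged 91.2 CPM in Sep, 95.7 in Susp and 63.4 in Adh cells. LPAR2, a receptor for lysophosphatidic acid, averaged 8.44, 11.5 and 4.72 CPM. Libraries of 1 group share their culture condition, so these correlations mostly repeat the differences between groups. Among the tested genes that flank LILRA4 on chromosome 19, looked at after their values were seen, LENG8 fell in Adh cells as well (54449190 to 54462016). LENG8 averaged 113 CPM in Sep, 100.8 in Susp and 55.8 in Adh cells, with a log2 difference of -0.86 (SE 0.19) and an adjusted p of 0.0407 between Adh and Susp cells by edgeR. RPS9, TSEN34, LILRB3, LAIR1 and LILRB1 nearby were not called there.

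Genes downstream of the receptors were compared as a list of 14 adaptors and enzymes. PTPN6, which encodes SHP-1, stood at 389 ± 25.4 CPM in Sep, 499 ± 35.0 in Susp and 442 ± 47.5 in Adh cells. PTPN11 (SHP-2) stood at 443 ± 23.1, 369 ± 92.6 and 423 ± 18.3 CPM in the same order. The wide spread in Susp cells came from replicate 2 at 231 CPM, with the other Susp libraries at 405 to 430 CPM. The kinases LYN and SYK, which start signalling from these receptors, averaged 767 to 888 CPM. Of the 10 list genes tested, 2, 3 and 2 had an unadjusted p below 0.05 (edgeR). These counts belong to Adh against Susp, Susp against Sep and Adh against Sep cells. The share of all tested genes below that p is not given here. Counts of this kind, here and for the lists below, therefore have no background beside them. In any comparison of REC-1 groups, 0 of the 10 were called, by edgeR or by DESeq2. INPP5D, the lipid phosphatase SHIP1, came nearest with log2 differences of -0.42 (adjusted p = 0.00930) between Susp and Sep and -0.43 (adjusted p = 0.00457) between Adh and Sep cells by edgeR, under the 1.5-fold minimum.

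The adaptors that activating receptors need were at the limit of detection. FCER1G, which encodes the Fc receptor gamma chain that LILRA4 pairs with, had 0 to 8 counts per library and group means of 0.282 RPKM in Sep, 0.227 in Susp and 0.0723 in Adh cells. TYROBP (DAP12) had 0 to 20 counts and HCST (DAP10) had 2 to 12 counts per library. LILRA4 itself stood at 71.9 to 130 RPKM in the same cells (plot of levels per length).

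**Figure D4:**
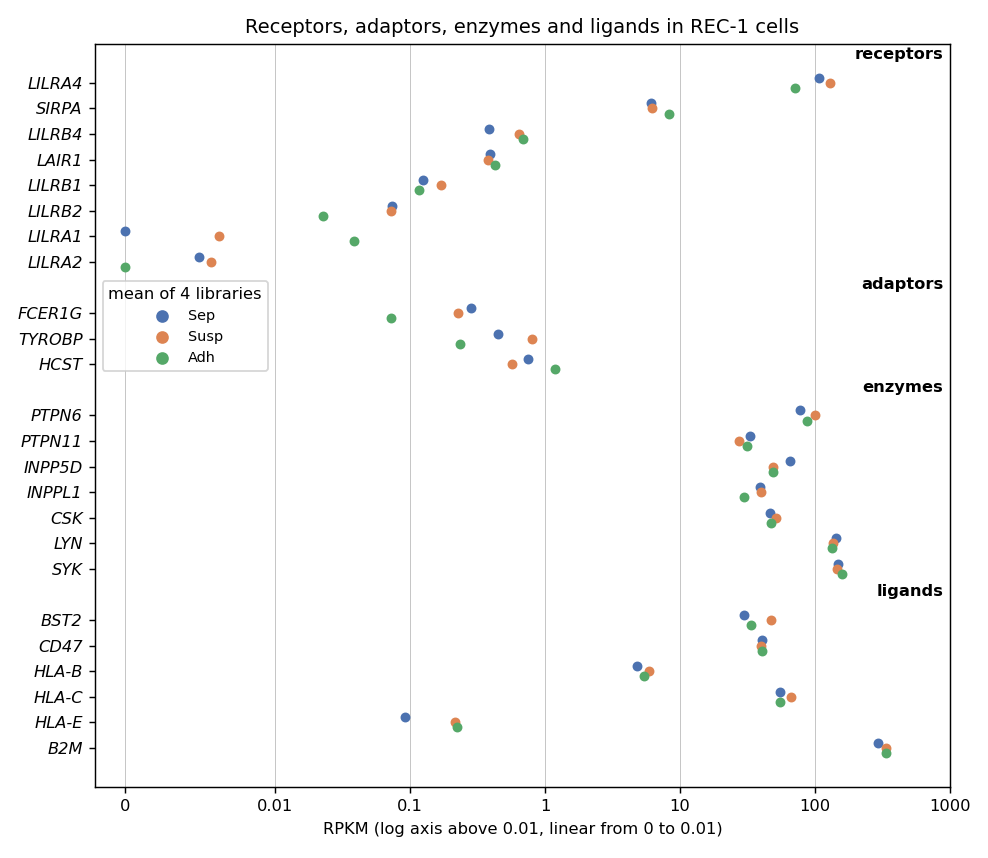
Mean level per exon length (RPKM) of the 8 receptors, 3 adaptors, 7 enzymes and 6 ligand genes in Sep, Susp and Adh REC-1 cells. The axis is logarithmic above 0.01 and linear below. LILRA4 (71.9 to 130 RPKM) lay among the enzymes and the abundant ligand genes, while the adaptor FCER1G lay between 0.0723 and 0.282 RPKM.

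Genes for some of the ligands were present in both cell types, and others were low in REC-1 cells. APOE, whose product binds LILRB4, averaged 0.466 to 0.692 CPM by REC-1 group. The collagen genes COL1A1, COL1A2, COL3A1 and COL17A1 averaged at most 0.214 CPM there. None of these human genes passed the low-count filter. Mouse Apoe averaged 1.92 CPM in MS-5 cells alone and 1.69 CPM in coculture. In REC-1 cells BST2, the ligand of LILRA4, had levels of 29.0 to 37.6 CPM in Sep, 46.1 to 69.8 in Susp and 31.3 to 43.6 in Adh libraries. BST2 rose in Susp over Sep cells (log2 difference 0.68, SE 0.15, adjusted p = 0.0294, edgeR), the 1 call among 7 tested ligand genes in that comparison. Of all genes tested there, 0.428% were called higher. The BST2 call was lost without Sep replicate 1, 3 or 4 (adjusted p from 0.0674 to 0.108). It was also lost without Susp replicate 2, where the log2 difference was 0.51. Between Adh and Susp cells and between Adh and Sep cells 0 of the 7 ligand genes were called, with 3 and 2 at an unadjusted p below 0.05. DESeq2 called 1 and 0 of them.

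CD47, the ligand of SIRPA, stood at 332 ± 24.9 CPM in Sep, 328 ± 8.34 in Susp and 334 ± 28.7 in Adh cells, with a log2 difference of 0.03 (SE 0.08) between Adh and Susp cells. Among HLA class I genes, which encode ligands of LILRB1 and LILRB2, HLA-C averaged 138 to 166 CPM and HLA-B 22.3 to 27.5 CPM by group. B2M, the light chain they share, averaged 912 to 1056 CPM. HLA reads can match more than a single HLA gene, so the split between these genes is uncertain.

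MS-5 cells expressed mouse genes for ligands of LAIR1 (collagens) and SIRPA (Cd47). Whether the mouse proteins bind the human receptors was not tested. The collagen genes Col1a1 and Col1a2 averaged 1325 and 1297 CPM of mouse counts in coculture, and Thbs1, whose product binds CD47, averaged 2603 CPM. Mouse counts of Adh libraries were compared with MS-5 cells alone, a comparison the choice of members did not use. Of 15 tested genes of the ligand list, Thbs1 included, 0 were called by edgeR, 4 had an unadjusted p below 0.05 and DESeq2 called 0. Mouse Bst2 averaged 18.7 CPM alone and 24.3 CPM in coculture (log2 difference 0.36, SE 0.11, adjusted p = 0.195), and Cd47 averaged 164 and 168 CPM (adjusted p = 0.837). Of all 12201 mouse genes tested 0.041% were called higher and 0.164% lower in coculture, and libraries did not overlap for 6.74%. Among mouse relatives of the receptors Sirpa alone passed the filter, at 78.0 ± 5.62 CPM alone and 86.2 ± 6.11 CPM in coculture (log2 difference 0.15, SE 0.07, adjusted p = 0.456, edgeR). Pirb and Lilrb4a had at most 2 counts in any library, and Lair1 had 0.

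A list of 16 other inhibitory receptors of B cells, which share ITIM-bearing tails but lie outside these families, was compared in the same way (plot of other inhibitory receptors). Of 14 tested, 4 were called between Susp and Sep cells, 2 of them higher and 2 lower. Of all genes tested there, 0.428% were called higher and 0.303% lower. The list was also chosen with earlier results of these data known, so its counts of calls are a description. CD72, which binds semaphorin 4D, averaged 22.9 CPM in Sep and 37.8 in Susp cells (log2 difference 0.72, SE 0.12, adjusted p = 0.00604). PECAM1, an adhesion molecule of leukocytes and endothelium, averaged 18.7 and 30.3 CPM (0.70, SE 0.11, adjusted p = 0.00385). The Fc receptor-like genes FCRL4 (-0.98, SE 0.11, adjusted p = 0.000251) and FCRL3 (-0.59, SE 0.12, adjusted p = 0.0234) fell in Susp cells by edgeR. Between Adh and Sep cells FCRL3 (-0.63, adjusted p = 0.00882) and FCRL2 (-0.59, adjusted p = 0.00128) fell by edgeR, beside 1.82% of all genes called lower. These folds of FCRL2 and FCRL3 lay near 1.5. The FCRL3 call between Susp and Sep cells was lost without Sep replicate 1, 2 or 3 or Susp replicate 2, 3 or 4 (log2 differences from -0.63 to -0.53). The FCRL3 call between Adh and Sep cells was lost without Sep replicate 1 or Adh replicate 3 or 4 (-0.58 to -0.57), and the FCRL2 call without Sep replicate 1 or 2, Susp replicate 2 or Adh replicate 2 or 3 (-0.58 to -0.53).

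Between Adh and Susp cells 0 of the 14 inhibitory receptors were called by edgeR, with 5 at an unadjusted p below 0.05 and 0 calls by DESeq2. FCGR2B, the inhibitory Fc gamma receptor, came nearest with a log2 difference of -0.46 (SE 0.10, adjusted p = 0.0331), under the fold minimum. The most abundant gene of the list, FCRL5, averaged 535 CPM in Sep, 373 in Susp and 422 in Adh cells and was not called. Its log2 difference between Susp and Sep cells was -0.52 (SE 0.10, adjusted p = 0.0152, edgeR), under the fold minimum. SIGLEC10 (183 to 214 CPM) and CD300A (156 to 193 CPM), both with ITIM-bearing tails, were not called either. Median log2 differences of the list were -0.19 between Adh and Susp, 0.08 between Susp and Sep and -0.28 between Adh and Sep cells.

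**Figure D5:**
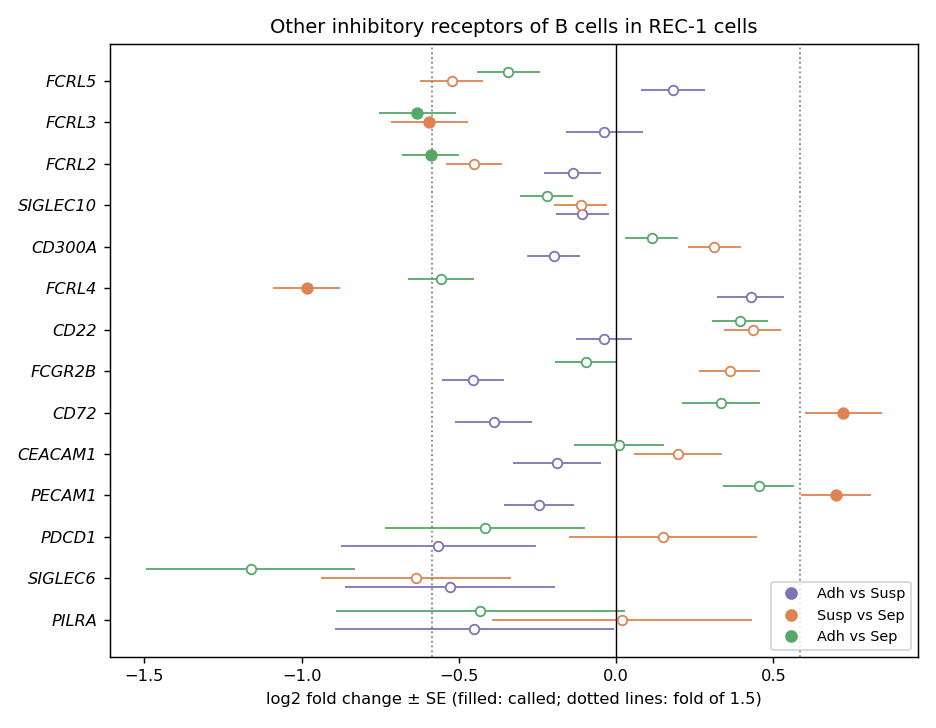
Log2 fold change of 14 other inhibitory receptors of B cells between REC-1 groups, with its standard error from edgeR, ordered by level. Filled points were called and open points were not, and dotted lines mark a fold of 1.5. FCRL4 lay lowest between Susp and Sep cells (-0.98), where CD72 (0.72) and PECAM1 (0.70) lay highest, and no point between Adh and Susp cells was filled.

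Markers were read for cells that normally carry these receptors. Summed levels of 8 B cell markers, CCND1 included, were 4853 to 6315 CPM, with all 8 detected in each group. The 11 plasmacytoid dendritic cell markers summed to 688 to 897 CPM. Most of this came from TCF4 (group means 382 to 465 CPM, with Susp replicate 2 at 232) and SPIB (332 to 363 CPM), which B cells also express. TLR7 (24.2 to 26.1 CPM) and IRF7 (13.1 to 14.5 CPM) were detected as well. Group means of IL3RA and PTCRA were 0.433 to 1.71 CPM, and those of GZMB, TLR9 and SCT were at most 0.647 CPM. CLEC4C had at most 4 counts, and NRP1 was at 0 in all REC-1 libraries. The 12 monocyte and macrophage markers summed to 1.11 to 3.24 CPM, with S100A8, S100A9, FCN1, FCGR3A and MARCO at 0. The 8 NK and T cell markers summed to 2.34 to 7.83 CPM, mostly CD3E, and the 7 human stromal markers to 2.77 to 5.91 CPM, mostly FN1. Total human counts were 9325412 to 12597891 in Sep, 15000927 to 21467832 in Susp and 7758979 to 13241751 in Adh libraries, so low genes were measured least precisely in Adh cells.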

How the data were processed

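Gene counts of 16 RNA-seq libraries were used, 4 each of Sep, Susp and Adh REC-1 cells and of MS-5 cells alone. Poly-A libraries were made with a kit that does not mark strand. Per the study's methods, the authors split reads by species with Xenome, mapped each part to GRCh38 or GRCm38 by STAR 2.5.1b, keeping unique hits, and assigned them to genes with featureCounts (Subread 1.5.2). The deposited counts are whole numbers per gene, neither normalized nor filtered. Another 20 columns of the tables hold other samples and were not used. Human counts per library were 7758979 to 21467832, and mouse counts were 10097555 to 34615602.

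Human counts of the 12 REC-1 libraries were fitted in 1 model with edgeR 4.0.16 in R 4.3.3 (filterByExpr, TMM, quasi-likelihood F-test), leaving 12861 genes. Mouse counts of Adh and MS-5 libraries had their own model. Calls needed a fold change of 1.5 or more and an adjusted p-value (Benjamini-Hochberg) not above 0.05. CPM used the summed counts of tested genes in each library, multiplied by its TMM factor. The limit of 3 counts was put into CPM by total counts instead. RPKM was CPM per length of the union of exons in the GENCODE annotation of GRCh38. This annotation also gave positions, coding sequences and overlaps. Code was tested on simulated counts.

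The members and gene lists were chosen with earlier results of these data known. Named were every member, listed genes that were called or averaged at least 10 CPM in 1 group (at most 6 per list beyond the called), and the 5 genes most correlated with LILRA4. The adaptors, LILRB3, APOE, mouse Apoe, human collagen genes, marker genes, neighbours and FCGR2B were named beyond that rule after their values were seen. Alternatives were DESeq2 1.42.0, the replicate number as a block, upper-quartile scaling, no low-count filter, a minimum of 10 counts in all libraries, no fold-change minimum and each library left out. Halved counts were added after seeing the data. Results for 1 listed gene are not reported here.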

Additional observations from a re-analysis of the deposited data

Results flagged for a closer look

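In 11 of 205 groups of 4 libraries examined over the listed genes, a single library stood apart from the other 3 by Dixon's criterion, which chance meets in about 1 group in 20. Of these 11, 6 were in Susp replicate 2. None of them was a member of the LILR, LAIR1 and SIRPA set.

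In Susp replicate 2, BST2 was at 69.8 CPM, against 46.1 to 47.5 CPM in the other Susp libraries. CD300A was at 219 CPM there, against 184 to 186 CPM. Lower values in this library were those of PECAM1 (26.2 CPM against 31.5 to 31.9), PTPN11 (231 CPM against 405 to 430), TCF4 (232 CPM against 425 to 439) and TLR7 (13.0 CPM against 27.3 to 28.7).

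LYN was at 1010 CPM in Sep replicate 1, against 844 to 852 CPM in the other Sep libraries. In Sep replicate 4, CD79B was at 524 CPM, against 445 to 458 CPM, and IL3RA at 0.399 CPM, against 1.0 to 1.1 CPM. In Adh cells, CD3E was at 2.57 CPM in replicate 3, against 6.07 to 6.42 CPM, and IRF7 at 7.67 CPM in replicate 1, against 14.6 to 15.2 CPM.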

How the results depend on the processing

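Over all genes, the counts of calls between Adh and Susp, Susp and Sep and Adh and Sep cells (100, 94 and 309) were 282, 173 and 527 with DESeq2 and 341, 217 and 503 with no low-count filter. They ranged from 51 to 165, 64 to 135 and 143 to 519 when a library was left out, lowest without Adh replicate 1, Sep replicate 2 and Sep replicate 2, and highest without Sep replicate 1, Susp replicate 1 and Susp replicate 2. In MS-5 cells 25 calls became 94 with no fold-change minimum, 45 with no low-count filter and 8 to 36 when a library was left out. Among the members, calls between Adh and Sep cells became 2 with no fold-change minimum (LILRA4 and SIRPA) or with DESeq2 (LILRA4 and LILRB4), and 0 or 1 when a library was left out. Ligand genes of REC-1 gave 1 call between Adh and Susp cells with DESeq2, and 0 or 1 between Susp and Sep cells when a library was left out. With no fold-change minimum, other inhibitory receptors gave 1, 7 and 5 calls in the 3 comparisons. Signalling partners gave 1 call in each comparison with Sep cells. Counts over all genes tested in REC-1 cells at that setting are not given here, so these calls have no background beside them. Calls of other inhibitory receptors between Adh and Sep cells ranged from 0 to 4 when a library was left out. Uncalled log2 differences of LAIR1 (in the 3 comparisons), LILRB1 (Adh against Sep) and SIRPA (Susp against Sep) changed sign under some settings. The cause was not tested, apart from the settings that test other genes or lower the minimum.

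The replicate numbers were checked as pairs. Same-numbered libraries deviated together (r over 0.1) for replicate 1 in every comparison, for replicates 2 and 4 also between Adh and Sep cells, and for replicate 4 also in MS-5 cells. Since no comparison had this for all 4 numbers and the labels do not say what a number marks, the groups were compared without the block. With the replicate block the counts of calls were 281, 175 and 384 in REC-1 and 45 in MS-5 cells, and the number of calls among the members and in each list stayed the same.

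Depth limits LILRA1, LILRA2, LILRB2 and LILRB1, and intervals between libraries cover no variation between cell lines.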
